A study of Homo sapiens with 28 samples.

Results

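The genes that encode the CDK inhibitors of both families, CDKN1A, CDKN1B, CDKN1C, CDKN2A, CDKN2B, CDKN2C and CDKN2D, were followed in LNCaP prostate cancer cells treated with androgen and with inhibitors of the Mediator kinases. They were taken from the count table by gene symbol, which gave 7 of its 61815 human genes, and all 7 passed the filter on low counts. In both experiments the androgen R1881 lowered CDKN1A and CDKN1B and raised CDKN2C and CDKN2D, each at an adjusted p under 0.01. The share of the INK4 genes in the summed level of the 7 was higher in every library with R1881. Not all INK4 genes rose with R1881 alone, as CDKN2A was lower at 24 h and CDKN2B missed an adjusted p under 0.01 in both experiments. The androgen response of CDKN1C differed between the experiments and, at 72 h, with the Mediator kinase inhibitor. Both differences missed an adjusted p under 0.01 when certain single libraries were left out, any 1 of 16 and any 1 of 6 in that order.

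CDK inhibitors are small proteins that bind cyclin-dependent kinases (CDKs) or their complexes with cyclins and restrain the cell cycle. The Cip/Kip family (CDKN1A for p21, CDKN1B for p27, CDKN1C for p57) binds many cyclin-CDK complexes, chiefly those of CDK2, and also helps to assemble the complexes of D-type cyclins. The INK4 family (CDKN2A for p16, CDKN2B for p15, CDKN2C for p18, CDKN2D for p19) binds CDK4 and CDK6, whose activity otherwise inactivates the retinoblastoma protein and frees the E2F factors that drive genes of DNA replication. In prostate cells p27 protein is known to be controlled largely by degradation, which RNA counts do not measure.

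LNCaP is a human prostate cancer line that responds to androgen, so each result here is that of 1 cell line. All cells, controls included, were first held for 72 h in medium with charcoal-stripped serum, which has little steroid hormone. In the first experiment they then received vehicle (DMSO at 0.1%), Senexin B at 1 µM, R1881 at 0.1 nM, or R1881 with Senexin B for 24 h, with 3 libraries in each group. In the second they received the same vehicle, SNX631 at 500 nM, R1881 at 1 nM, or R1881 with SNX631 for 72 h, with 4 libraries in each group. R1881 is a synthetic androgen, and Senexin B and SNX631 inhibit CDK8 and CDK19, the Mediator kinases (Mediator kinase inhibitors, MKIs). Doses are those of the labels, and the text of the study gives another dose for Senexin B. The experiments differ at the same time in duration, androgen dose, inhibitor and culture, which cannot be told apart.

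The 28 libraries held from 9846595 to 33809419 counts. Replicate 3 of vehicle at 24 h had the highest total, and the next was 15248512. None of the 36 replicate pairs looked like 1 library deposited again, as each differed beyond sampling noise, and the common biological coefficient of variation was 2.72% at 24 h and 2.38% at 72 h. The methods of the study call the replicates biological, while the labels do not say whether they were separate cultures, and p-values measure the spread between these libraries. The luminal markers KRT8, KRT18, EPCAM and HOXB13 were at 160.7 CPM (counts per 1000000 of a library) or more in every library, while the basal markers KRT5, KRT14 and TP63 summed to 0.446 CPM at most. The 5 stromal markers summed to 9.71 to 36.7 CPM and were lower in each R1881 group than in its control (COL1A1 took 7.40 to 31.1 CPM, and DCN was at 0.0789 at most). The 3 immune markers summed to 1.40 CPM at most with CD3E at 0 in every library, and the 3 endothelial markers to 4.51 at most, nearly all of it VWF, with CDH5 at 0.0288 at most. The part of these markers in the results was not tested.

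Promoter sequences of the members that moved together in both experiments are shown first, CDKN1A and CDKN1B for those that fell with R1881 and CDKN2C and CDKN2D for those that rose. Each runs from 250 bases before a RefSeq start site to 50 bases after it (build GRCh38.p14), 5′ to 3′ on the strand of the gene. Capitals mark GC boxes (GGGCGG, the core letters bound by SP-family factors) and CCAAT boxes on either strand.
CDKN1A (chr6:36678464-36678763, + strand): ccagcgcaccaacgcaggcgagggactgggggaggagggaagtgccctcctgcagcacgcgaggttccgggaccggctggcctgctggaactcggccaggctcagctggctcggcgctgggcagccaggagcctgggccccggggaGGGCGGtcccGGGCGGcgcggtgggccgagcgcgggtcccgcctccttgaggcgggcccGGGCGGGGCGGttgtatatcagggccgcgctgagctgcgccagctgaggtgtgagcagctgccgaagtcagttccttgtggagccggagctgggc
CDKN1B (chr12:12717118-12717417, + strand): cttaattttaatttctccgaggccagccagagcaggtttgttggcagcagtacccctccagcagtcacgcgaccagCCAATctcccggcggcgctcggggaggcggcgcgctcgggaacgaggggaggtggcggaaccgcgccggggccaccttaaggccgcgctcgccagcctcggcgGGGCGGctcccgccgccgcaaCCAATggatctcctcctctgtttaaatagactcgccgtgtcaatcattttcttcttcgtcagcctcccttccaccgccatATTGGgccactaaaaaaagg
CDKN2C, the second of 3 listed starts (chr1:50968456-50968755, + strand): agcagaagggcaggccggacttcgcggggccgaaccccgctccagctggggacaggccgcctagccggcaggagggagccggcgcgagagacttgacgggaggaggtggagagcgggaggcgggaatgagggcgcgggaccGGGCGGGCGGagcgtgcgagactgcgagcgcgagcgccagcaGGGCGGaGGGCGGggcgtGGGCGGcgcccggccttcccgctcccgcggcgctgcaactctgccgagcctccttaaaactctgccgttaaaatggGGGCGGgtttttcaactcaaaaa
CDKN2D (chr19:10568930-10569229, - strand): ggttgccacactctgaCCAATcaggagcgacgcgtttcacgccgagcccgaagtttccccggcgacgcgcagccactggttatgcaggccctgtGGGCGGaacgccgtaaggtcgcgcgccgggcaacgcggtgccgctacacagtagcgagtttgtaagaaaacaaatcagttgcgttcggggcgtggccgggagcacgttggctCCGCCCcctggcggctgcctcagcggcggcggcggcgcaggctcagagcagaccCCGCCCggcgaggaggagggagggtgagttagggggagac
These windows held 4, 1, 6 and 3 GC boxes in the order printed, of which 2 in CDKN1A and 2 in CDKN2C overlapped each other. The CDKN2C window was chosen as the one of its 3 with the most GC boxes, and the others held 0 and 1. CDKN1B also held 3 CCAAT boxes and CDKN2D held 1. The table listed 9 promoters for 6 of the 7 genes. A GC box was present in 7 of the 9, against 45.0% of 35116 promoters of that length, and a CCAAT box in 3 of the 9, against 34.6%. No member promoter held the letters TTTGAA, the CHR element of late cell cycle genes (15.2% of all promoters), or an E2F site searched as TTTCCCGC, TTTCGCGC, TTTGCCGC or TTTGGCGC (3.31%). The androgen receptor half-site AGAACA was likewise in 0 of the 9, against 14.8% of all promoters. Every motif was searched on both strands. The counts are per gene and do not say which of the CDKN2C or CDKN2A starts was in use, and a match describes letters only.

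The genes lie apart except for CDKN2A and CDKN2B. In GENCODE 29 on GRCh38, CDKN1A (ENSG00000124762) spans chr6:36676460-36687339 on the + strand, CDKN1B (ENSG00000111276) chr12:12715058-12722371 on the + strand, and CDKN1C (ENSG00000129757) chr11:2883213-2885773 on the - strand. CDKN2A (ENSG00000147889) spans chr9:21967753-21995301 and CDKN2B (ENSG00000147883) chr9:22002903-22009363, both on the - strand. CDKN2C (ENSG00000123080) spans chr1:50960745-50974633 on the + strand and CDKN2D (ENSG00000129355) chr19:10566462-10569059 on the - strand. The row of CDKN2A joins the transcripts of p16 and of ARF, a regulator of p53 stability read from the same gene in another frame, and these cannot be told apart in the counts. CDKN2A and CDKN2B also overlap AL359922.1 on the opposite strand, which had 34 to 144 counts per library. CDKN2B-AS1, the other antisense gene there, had 0 to 7. The library kit keeps strand, but whether the counting used it is not given in the sources used here, so reads of these overlapping genes may not be separated. CDKN2B, with 7 to 56 counts per library, is the member this touches most.

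Levels between genes were compared as CPM per kb of exon. In the 24 h vehicle group CDKN1A stood at 30.6 ± 1.19 and CDKN1B at 23.1 ± 1.07 CPM per kb (SD, n = 3), and their libraries did not overlap. CDKN1C (3.89 ± 0.248), CDKN2A (3.41 ± 0.497) and CDKN2D (2.78 ± 0.412) formed a middle range in which neighbours overlapped. CDKN2C followed at 2.02 ± 0.150 CPM per kb, and CDKN2B was the lowest at 0.355 ± 0.0646. CDKN2B was also the lowest member in each of the other groups. The 72 h vehicle group placed CDKN1A at 27.5 ± 1.28 and CDKN1B at 24.5 ± 0.776 CPM per kb (SD, n = 4), again without overlap, and its other members between 0.317 and 3.40.

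In other groups the order was different. With R1881, CDKN1B and CDKN1A overlapped at 24 h (17.3 ± 1.09 and 16.3 ± 1.27 CPM per kb) and at 72 h (19.9 ± 0.936 and 19.0 ± 0.913), as they did in the groups with R1881 and Senexin B and with SNX631 alone, and CDKN1B lay above CDKN1A without overlap in the 72 h group with R1881 and SNX631 (18.9 ± 0.530 against 15.95 ± 0.445). CDKN2C moved from the sixth place in both vehicle groups to the third in all 4 groups with R1881, at 4.76 ± 0.301 CPM per kb at 24 h and 6.73 ± 0.872 at 72 h. CDKN2D came next in those 4 groups, and its libraries overlapped those of CDKN2C in the 72 h R1881 group only.

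The summed level of the 7 genes per kb fell from 66.2 ± 0.903 in vehicle to 47.1 ± 3.43 with R1881 at 24 h, and from 64.3 ± 1.27 to 58.5 ± 2.02 at 72 h. The Cip/Kip part went from 57.6 ± 0.860 to 36.0 ± 2.62 CPM per kb at 24 h and from 55.2 ± 1.33 to 42.2 ± 1.58 at 72 h. The INK4 part went the other way, from 8.57 ± 0.683 to 11.1 ± 0.899 and from 9.06 ± 0.364 to 16.3 ± 0.616. Within it CDKN2C and CDKN2D rose in both experiments. CDKN2A went from 3.41 to 2.34 CPM per kb at 24 h and from 3.40 to 3.31 at 72 h. CDKN2B went from 0.355 to 0.244 and from 0.317 to 0.469. INK4 genes thus made up 12.95 ± 0.974% of the summed level in the 24 h vehicle libraries and 23.6 ± 0.718% with R1881. At 72 h the share was 14.1 ± 0.641% in vehicle and 27.8 ± 0.633% with R1881. The share was 12.1 ± 0.527% with Senexin B alone and 15.996 ± 1.39% with SNX631 alone, and 25.7 ± 0.174% and 31.7 ± 1.23% where each was given with R1881. Every library with R1881 lay above every library without it, with 22.8% as the lowest of the former and 17.6% as the highest of the latter. These sums are descriptions of a chosen set, with no test. In bulk RNA, fewer cells that express a gene and less of its RNA per cell cannot be told apart.

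**Figure D1:**
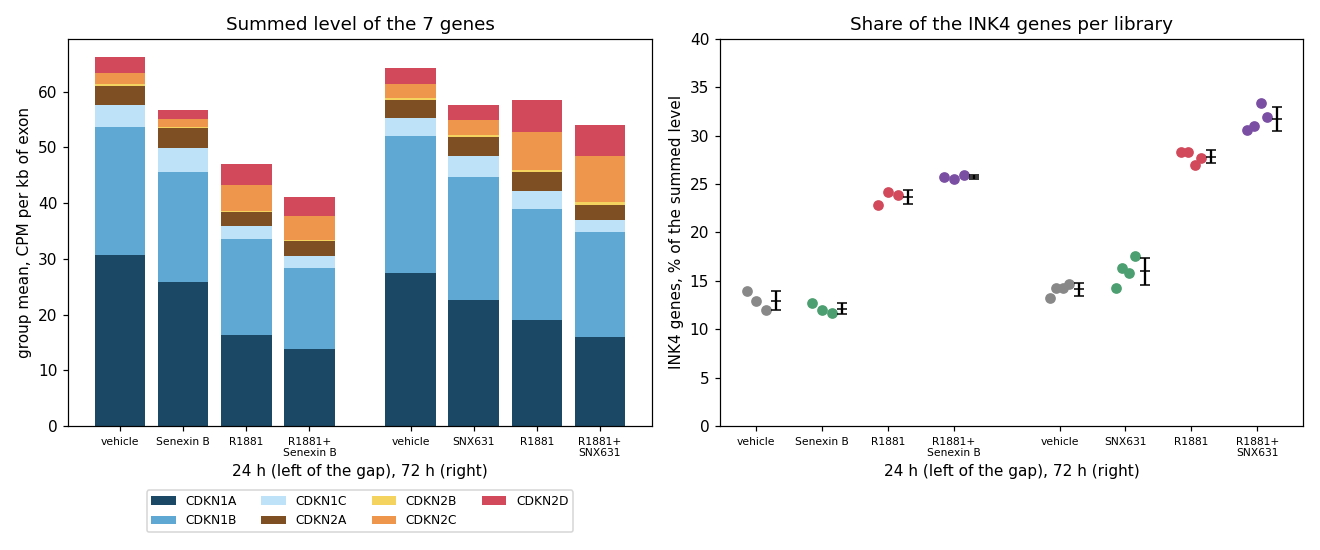
Left, mean level of each CDK inhibitor gene in CPM per kb of exon, stacked, in the 4 groups at 24 h (n = 3) and the 4 groups at 72 h (n = 4). Right, the share of the 4 INK4 genes in that sum, with a point per library and mean ± SD, where libraries without R1881 lie between 11.7 and 17.6% and those with R1881 between 22.8 and 33.3%.

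Differences were tested by edgeR's quasi-likelihood test within each experiment, and a gene was called at an FDR (Benjamini-Hochberg adjusted p over all genes tested) under 0.01 where its fold change was also over 1.5, as the study set for DEGs. At 24 h R1881 alone raised CDKN2C and lowered CDKN1A and CDKN1C, which makes 3 members called, against 19.0% of the 15963 genes tested. Without the fold limit, CDKN2D was also higher and CDKN1B and CDKN2A also lower at an FDR under 0.01, against 48.3% of all genes. In the presence of Senexin B, R1881 gave 4 called members (18.9% of all genes), CDKN2C and CDKN2D higher and CDKN1A and CDKN1C lower. At 72 h R1881 alone raised CDKN2C and CDKN2D, and lowered none past both limits, so that 2 members were called (19.8% of 16084 genes). With SNX631 present the count was 4 (22.0% of all genes), CDKN2B, CDKN2C and CDKN2D higher and CDKN1C lower. CDKN1A and CDKN1B were lower at an FDR under 0.01 in all of these comparisons.

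The median log2 fold change of the members with R1881 was -0.49 at 24 h and 0.07 at 72 h, beside -0.02 and -0.01 over all genes tested. The libraries of R1881 and vehicle did not overlap for 7 members at 24 h, as for 62.1% of all genes, and for 5 at 72 h, as for 55.0%. With the inhibitor present they did not overlap for 6 members at 24 h (62.6% of all genes) and for 6 at 72 h (57.6%). Among all genes at 24 h, 7.44% changed by as much as CDKN2C, the member that changed most, or more.

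**Figure D2:**
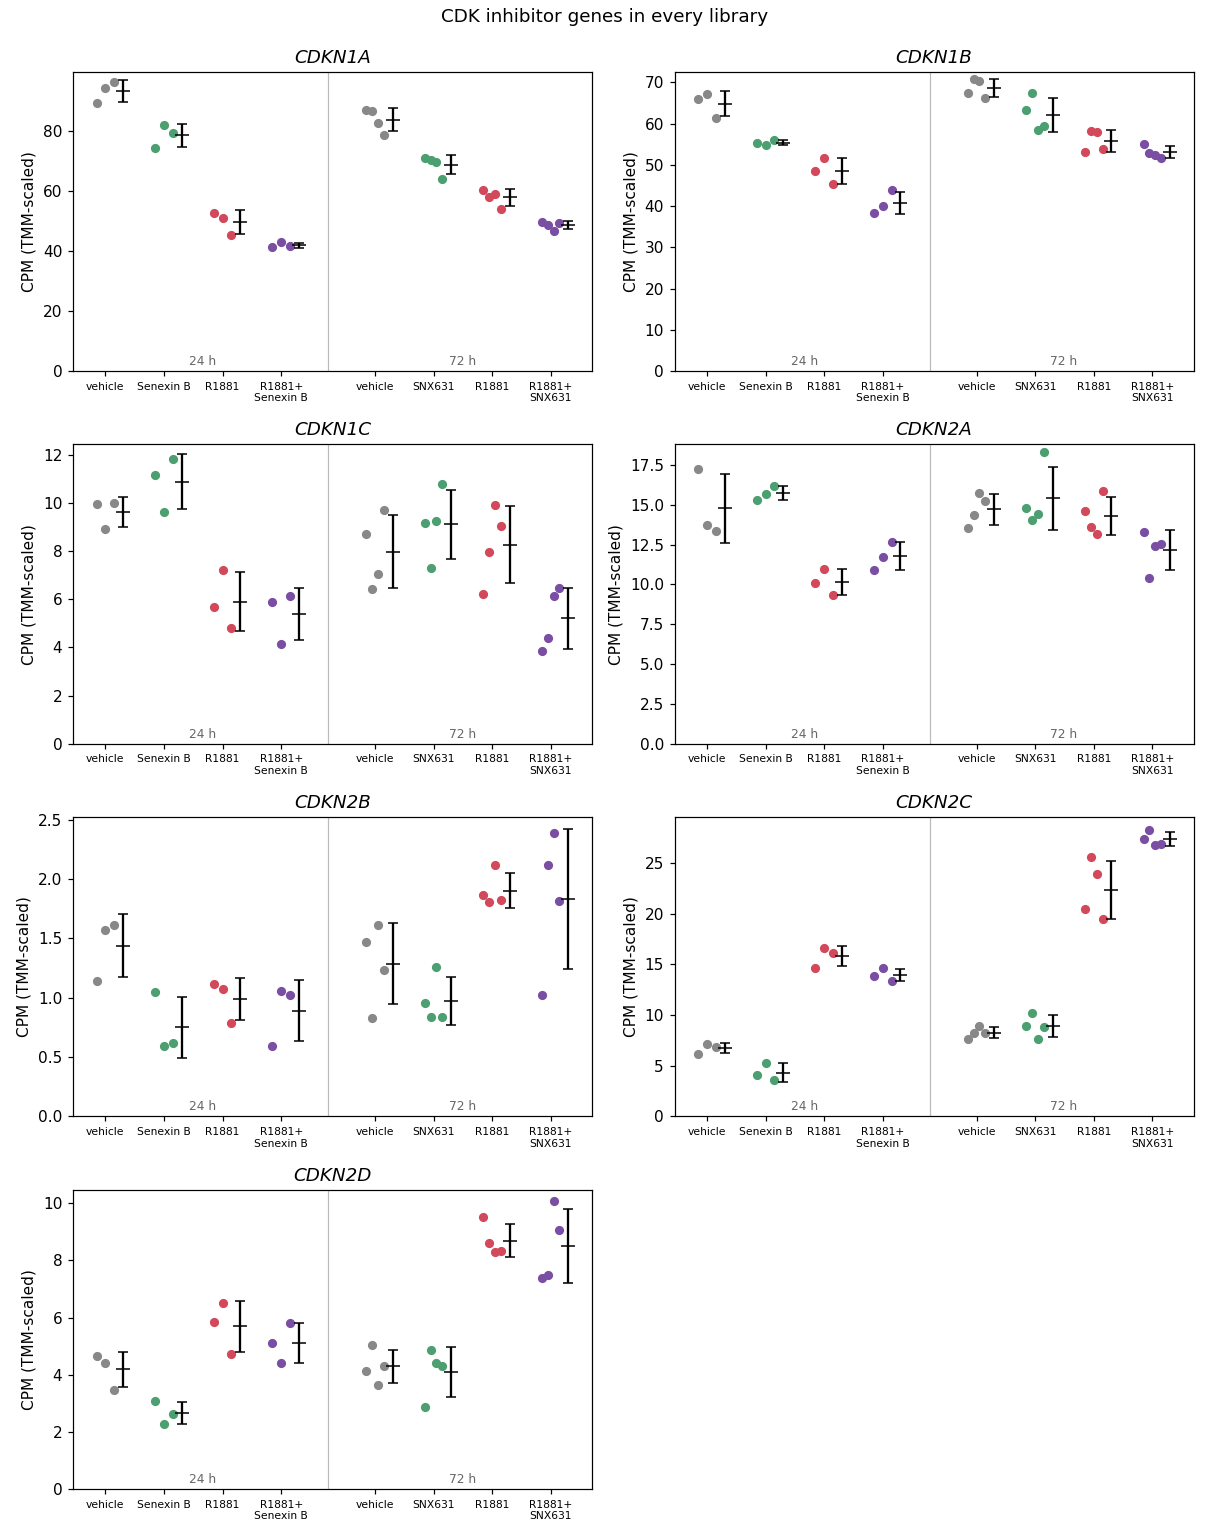
Each panel plots 1 CDK inhibitor gene in CPM scaled by TMM over 28 libraries, with a coloured point per library and the mean ± SD in black beside it, in the 4 groups at 24 h (left) and the 4 at 72 h (right). CDKN1A and CDKN1B are highest in vehicle and lowest with R1881 and inhibitor together, while CDKN2C and CDKN2D are higher in every R1881 group than in the matching group without it.

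CDKN1A encodes p21, a classical p53 target that halts the cycle after DNA damage. Its 24 h vehicle libraries had 89.4, 94.6 and 96.4 CPM and its R1881 libraries 52.9, 51.0 and 45.4. With Senexin B alone they had 74.5, 82.2 and 79.4 CPM, and with both agents 41.3, 43.1 and 41.7. The 4 groups did not overlap one another, and R1881 lowered the gene 1.89-fold (log2 fold change -0.92 ± 0.052, SE, FDR 1.4e-16) or, with Senexin B present, 1.86-fold (-0.89 ± 0.056, FDR 2.6e-15). At 72 h the vehicle libraries had 87.3, 86.7, 82.8 and 78.9 CPM and the R1881 libraries 60.6, 58.3, 59.2 and 54.1. With SNX631 they had 71.2, 70.5, 69.7 and 64.3 CPM, and with both agents 49.8, 48.7, 46.7 and 49.4. These 4 groups did not overlap either, and the decrease with R1881 was 1.45-fold (-0.53 ± 0.043, FDR 7.9e-14), or 1.42-fold with SNX631 present (-0.51 ± 0.043, FDR 5.8e-13). The effect at 72 h was smaller than that at 24 h, by 0.39 ± 0.068 on the log2 scale (FDR 3.9e-05).

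Both MKIs lowered CDKN1A, with and without androgen, at an FDR under 0.01. Senexin B gave -0.27 ± 0.046 without R1881 (FDR 2.7e-05) and -0.24 ± 0.061 with it (FDR 0.0027). SNX631 gave -0.28 ± 0.040 (FDR 5.1e-07) and -0.25 ± 0.046 (FDR 1.8e-05). Each is a decrease of 1.18-fold to 1.21-fold, below the fold limit. The interaction of R1881 and inhibitor was 0.03 ± 0.076 at 24 h (95% interval -0.12 to 0.18, FDR 0.92) and 0.03 ± 0.061 at 72 h (-0.09 to 0.15, FDR 0.84).

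CDKN1B encodes p27, which holds cells in quiescence. At 24 h its vehicle libraries had 65.9, 67.2 and 61.4 CPM, against 48.6, 51.6 and 45.4 with R1881. The Senexin B libraries had 55.3, 54.8 and 56.2 CPM, and those with both agents 38.4, 40.2 and 43.8. The groups again stood apart, R1881 lowering the gene 1.32-fold (-0.40 ± 0.054, FDR 9.5e-08) and 1.34-fold with Senexin B present (-0.43 ± 0.059, FDR 1.9e-07). At 72 h vehicle libraries had 67.5, 70.8, 70.3 and 66.3 CPM and R1881 libraries 53.3, 58.2, 58.0 and 53.9. The SNX631 libraries, at 63.3, 67.4, 58.4 and 59.5 CPM, overlapped vehicle, and those with both agents, at 55.2, 52.9, 52.5 and 51.7, overlapped R1881 alone. R1881 lowered CDKN1B 1.23-fold here (-0.30 ± 0.045, FDR 3.7e-07) and 1.18-fold with SNX631 present (-0.23 ± 0.044, FDR 1.7e-05). Senexin B lowered it by a similar amount with and without R1881 (-0.24 ± 0.061, FDR 0.0025, and -0.22 ± 0.051, FDR 0.00097). SNX631 gave -0.14 ± 0.043 without R1881 (FDR 0.0088) and -0.08 ± 0.046 with it (FDR 0.19).

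CDKN1C encodes p57, an imprinted growth inhibitor, and was the member called for a difference in its androgen response, both with inhibitor at 72 h and between the experiments. At 24 h it had 9.96, 8.92 and 10.0 CPM in vehicle and 5.66, 7.22 and 4.82 with R1881. It had 11.2, 9.61 and 11.8 CPM with Senexin B and 5.88, 4.13 and 6.14 with both. The libraries with and without R1881 did not overlap, and R1881 lowered the gene 1.65-fold (-0.72 ± 0.137, FDR 2.6e-05), or 1.98-fold with Senexin B present (-0.99 ± 0.144, FDR 3.3e-07). Without replicate 3 of the R1881 group the first value became -0.58 (FDR 0.0013), just inside the fold limit. At 72 h vehicle libraries had 8.71, 6.42, 7.05 and 9.72 CPM and R1881 libraries 6.22, 7.95, 9.89 and 9.02, so these groups overlapped. SNX631 libraries had 9.17, 7.27, 9.23 and 10.8 CPM, and those with both agents 3.86, 4.38, 6.13 and 6.45, below all libraries with SNX631 alone.

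In numbers, R1881 gave CDKN1C a log2 fold change of 0.07 ± 0.142 at 72 h without inhibitor (95% interval -0.21 to 0.34, FDR 0.71) and of -0.79 ± 0.148 with SNX631 (FDR 1.1e-05). The interaction was -0.86 ± 0.205 (FDR 0.0031) and made CDKN1C the 1 member called for it, against 1.19% of all genes. Seen from the inhibitor, SNX631 gave 0.19 ± 0.137 without R1881 (FDR 0.29) and lowered the gene 1.59-fold with R1881 (-0.67 ± 0.153, FDR 0.00041). The libraries with both agents overlapped those with R1881 alone, as replicate 4 of both agents had 6.45 CPM and replicate 1 of R1881 had 6.22. The interaction lost its call without any 1 of 6 libraries (replicate 2 of vehicle, replicate 4 of SNX631, replicates 3 and 4 of R1881, and replicates 1 and 2 of R1881 with SNX631), with values from -0.81 to -0.75 and FDRs of 0.011 to 0.015. The effect of SNX631 with R1881 fell within the fold limit without replicate 3 of R1881 (-0.58) or replicate 1 of both agents (-0.56). At 24 h the corresponding interaction with Senexin B was -0.27 ± 0.199 (95% interval -0.66 to 0.12, FDR 0.55).

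CDKN2A encodes p16, a tumour suppressor lost in many cancers, beside ARF. At 24 h it had 17.3, 13.7 and 13.4 CPM in vehicle and 10.1, 10.96 and 9.37 with R1881. It had 15.3, 15.7 and 16.2 CPM with Senexin B and 10.9, 11.7 and 12.7 with both agents. R1881 lowered it 1.41-fold (-0.49 ± 0.103, FDR 0.00010), and 1.32-fold with Senexin B present (-0.40 ± 0.102, FDR 0.0011), with no overlap in either case. At 72 h it had 13.5, 14.3, 15.7 and 15.3 CPM in vehicle and 14.6, 13.6, 13.2 and 15.9 with R1881, which overlapped. SNX631 gave 14.8, 14.02, 14.4 and 18.3 CPM, and both agents 13.3, 10.4, 12.4 and 12.5. R1881 alone gave -0.04 ± 0.088 here (95% interval -0.22 to 0.13, FDR 0.70), while with SNX631 it lowered CDKN2A 1.27-fold (-0.34 ± 0.087, FDR 0.00073). The interaction was -0.30 ± 0.124 and did not pass (FDR 0.11).

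CDKN2B, which encodes p15, an inhibitor induced by TGF-β in epithelial cells, was measured with the least precision. At 24 h it had 1.14, 1.57 and 1.61 CPM in vehicle, 1.11, 1.07 and 0.788 with R1881, 1.05, 0.590 and 0.619 with Senexin B and 0.596, 1.06 and 1.02 with both. The vehicle libraries were the highest of that experiment. R1881 gave -0.60 ± 0.297 (FDR 0.071), and 0.24 ± 0.368 with Senexin B present (FDR 0.60). At 72 h it had 1.47, 0.831, 1.61 and 1.23 CPM in vehicle, 1.87, 1.80, 2.12 and 1.82 with R1881, 0.951, 0.834, 1.26 and 0.841 with SNX631 and 1.02, 2.12, 2.38 and 1.81 with both. All R1881 libraries lay above vehicle here, yet the difference of 0.58 ± 0.249 did not pass the FDR limit (0.041). With SNX631 present R1881 raised CDKN2B 1.90-fold (0.92 ± 0.261, FDR 0.0016), although replicate 1 of both agents overlapped SNX631 alone, and without replicate 3 of both agents the call was lost (0.77, FDR 0.014).

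CDKN2C encodes p18 and had the largest androgen response of the members in each comparison. At 24 h it had 6.16, 7.14 and 6.82 CPM in vehicle and 14.7, 16.6 and 16.1 with R1881. It had 4.12, 5.31 and 3.56 CPM with Senexin B and 13.9, 14.6 and 13.4 with both agents. No group overlapped another, and R1881 raised it 2.33-fold (1.22 ± 0.102, FDR 4.1e-12), or 3.26-fold with Senexin B present (1.70 ± 0.132, FDR 1.6e-13). The difference between these effects, 0.48 ± 0.167, did not pass (FDR 0.098). At 72 h it had 7.59, 8.23, 8.92 and 8.25 CPM in vehicle and 20.4, 25.6, 23.9 and 19.4 with R1881. It had 8.91, 10.2, 7.65 and 8.83 CPM with SNX631 and 27.4, 28.3, 26.8 and 26.8 with both agents. The lowest library with R1881 was above every library without it, and R1881 raised the gene 2.72-fold (1.44 ± 0.093, FDR 5.6e-17), or 3.05-fold with SNX631 present (1.61 ± 0.087, FDR 1.0e-19).

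CDKN2D, which encodes p19 and whose expression in many cells follows the S phase, rose beside CDKN2C. At 24 h it had 4.65, 4.43 and 3.48 CPM in vehicle and 5.85, 6.51 and 4.73 with R1881. It had 3.07, 2.28 and 2.63 CPM with Senexin B and 5.11, 4.42 and 5.82 with both agents. R1881 raised it 1.44-fold (0.52 ± 0.156, FDR 0.0050), below the fold limit, and 1.94-fold with Senexin B present (0.96 ± 0.190, FDR 5.0e-05). The first of these passed both limits without replicate 1 or 2 of vehicle or replicate 3 of R1881 (0.59 to 0.65). At 72 h it had 4.14, 5.06, 3.65 and 4.32 CPM in vehicle and 9.53, 8.61, 8.30 and 8.33 with R1881. It had 2.85, 4.85, 4.42 and 4.29 CPM with SNX631 and 7.40, 7.49, 10.1 and 9.06 with both. Libraries with R1881 lay above all those without it, by 2.01-fold (1.00 ± 0.135, FDR 2.5e-08) and, with SNX631 present, by 2.06-fold (1.04 ± 0.133, FDR 5.3e-09).

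**Figure D3:**
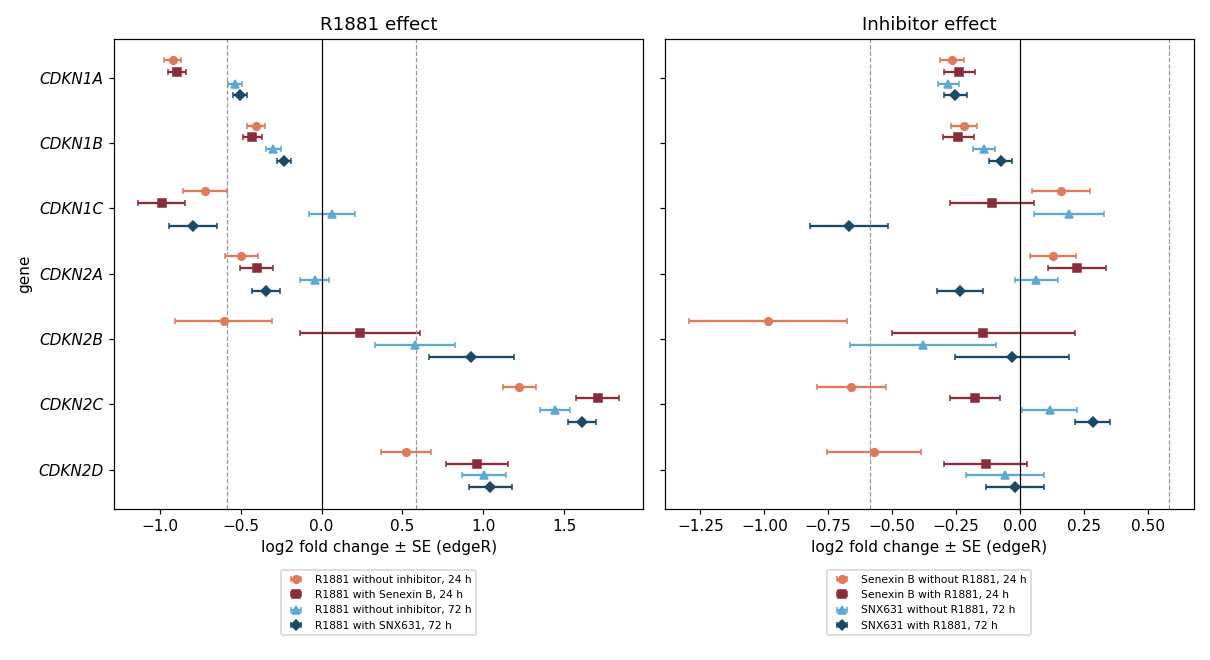
Log2 fold change ± SE (edgeR) of each CDK inhibitor gene for R1881 (left) and for the inhibitor (right) without and with the other agent at 24 h and 72 h, where dashed lines mark a fold change of 1.5. R1881 moved CDKN2C between 1.22 and 1.70 and CDKN1A between -0.92 and -0.51, while the inhibitor effects on CDKN1A sit together between -0.28 and -0.24.

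The MKIs alone changed few members past both limits. Senexin B without R1881 lowered CDKN2C 1.58-fold (-0.66 ± 0.136, FDR 0.00019) and CDKN2B 1.98-fold (-0.99 ± 0.310, FDR 0.0088), so 2 members were called against 3.76% of all genes. CDKN2D came close to the limits (-0.57 ± 0.184, FDR 0.013), and 5 members had no overlap between Senexin B and vehicle, as did 45.8% of all genes. Both calls depended on single libraries. CDKN2C fell within the fold limit without replicate 3 of Senexin B (-0.53, FDR 0.0055). CDKN2B missed the FDR limit without any 1 of 9 libraries (FDR 0.010 to 0.085), namely replicates 2 and 3 of vehicle, of Senexin B and of both agents, and replicates 1, 2 and 3 of R1881.

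In the presence of R1881, Senexin B gave 0 called members by edgeR, where 3.12% of all genes were called, and CDKN1A and CDKN1B were the 2 members at an FDR under 0.01, as were 22.6% of all genes. CDKN2C, at -0.18 ± 0.097 (95% interval -0.37 to 0.01, FDR 0.17), and CDKN2D, at -0.13 ± 0.163 (-0.45 to 0.19, FDR 0.57), did not pass. SNX631 without R1881 likewise gave 0 called members by edgeR (4.76% of all genes), with CDKN1A and CDKN1B again the 2 at an FDR under 0.01 (26.9% of all genes). CDKN2C was at 0.12 ± 0.107 (95% interval -0.09 to 0.33) and CDKN2D at -0.06 ± 0.153 (-0.36 to 0.24). With R1881, SNX631 gave 1 called member (4.11% of all genes), CDKN1C as above, and CDKN2C was 1.22-fold higher (0.28 ± 0.069, FDR 0.00080), with no overlap between the libraries. The interaction of R1881 and Senexin B gave 0 called members by edgeR, where 0.583% of all genes were called, and 1 had an unadjusted p under 0.05. DESeq2's Wald test also gave 0 called members in these 3 comparisons. The unadjusted p of edgeR's test was under 0.05 for 2 members of Senexin B with R1881 and 2 of SNX631 without R1881. The share of all genes at an unadjusted p under 0.05 was not counted.

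The experiments were then set beside each other in a fit of all 28 libraries. The R1881 effect of CDKN1C was higher at 72 h and 1 nM than at 24 h and 0.1 nM by 0.78 ± 0.219 (FDR 0.00996), which made it the 1 member called, against 1.89% of 16685 genes. That call sat at the limit and was lost without any 1 of 16 of the 28 libraries (FDR 0.010 to 0.058). CDKN2A differed by 0.45 ± 0.140 (FDR 0.023) and CDKN2B by 1.18 ± 0.388 (FDR 0.029), while CDKN2C differed by 0.22 ± 0.140 (95% interval -0.05 to 0.50, FDR 0.34). Without R1881 the SNX631 effect exceeded the Senexin B effect for CDKN2C by 0.77 ± 0.177 (FDR 0.0042), again 1 member called, against 0.461% of all genes. This call was lost without replicate 3 of the 24 h vehicle, replicate 1 or 3 of Senexin B or replicate 2 of SNX631 (FDR 0.012 to 0.028). For CDKN1A the inhibitor effects differed by -0.02 ± 0.062 without R1881 (95% interval -0.15 to 0.10) and by -0.01 ± 0.077 with it (-0.16 to 0.14). With R1881 the difference gave 0 called members by edgeR and by DESeq2 (0.204% of all genes by edgeR), and CDKN2C came nearest (0.47 ± 0.121, FDR 0.013). In edgeR's test 4 members had an unadjusted p under 0.05, and the share of all genes at that limit was not counted. An FDR under 0.05 was reached by 1 member and by 6.08% of all genes.

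The targets of the CDK inhibitors and the genes around them are given as lists written from general knowledge, with earlier results of these data known. A rise or fall there means past both limits, as for 19.0% of all genes tested with R1881 at 24 h and 19.8% at 72 h. In these comparisons the medians of all genes were -0.02 and -0.01 on the log2 scale. Of 13 cyclins and CDKs, 11 were tested, and R1881 raised 8 of them past both limits at 24 h and 7 at 72 h, with none lower, and a median of 1.60 and 1.05 on the log2 scale. CDK6, a direct partner of the INK4 proteins, rose by 2.34 ± 0.194 and 2.32 ± 0.189, from low vehicle means of 1.45 and 1.50 CPM. CCNA2, the S phase partner of CDK2, rose by 2.63 ± 0.133 and 1.71 ± 0.080, and CDK1, the mitotic kinase, by 2.06 ± 0.048 and 1.41 ± 0.033. Of 13 pocket proteins and E2F factors, all tested, 5 rose at 24 h and 4 at 72 h and none fell past both limits (medians 0.31 and 0.11), while TFDP2 was lower at 72 h at an FDR under 0.01 (-0.14 ± 0.038). The rising ones were led by E2F7 (3.69 ± 0.215 and 2.12 ± 0.133) and E2F8 (3.50 ± 0.248 and 1.86 ± 0.134), repressor E2Fs. Both were low in vehicle, with means of 1.03 and 0.728 CPM at 24 h and of 3.21 and 2.59 at 72 h. Among 13 genes of Cip/Kip turnover, all tested, 4 rose at 24 h and 3 at 72 h, the latter a share near that of all genes (medians 0.10 and 0.20), and without the fold limit CDC34 was lower at 24 h (-0.22 ± 0.053) and CUL4B at 72 h (-0.15 ± 0.031). DTL, the adaptor that targets p21 for degradation in S phase, rose by 3.76 ± 0.113 and 1.78 ± 0.089, and CKS1B, the cofactor of SKP2 in p27 degradation, by 1.36 ± 0.085 and 1.10 ± 0.083. SKP2 itself rose by 0.89 ± 0.055 at 24 h.

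Of 24 p53 targets tested from 25 listed, CDKN1A left out, R1881 raised 3 and lowered 3 at 24 h, and raised 2 and lowered 8 at 72 h, with medians of -0.09 and -0.26. The 6 called at 24 h are a share near that of all genes. GDF15, a stress-induced cytokine, fell by 1.27 on the log2 scale at 24 h and by 0.94 at 72 h, and TP53INP1 by 0.90 and 1.14, while PPM1D, a phosphatase that restrains p53, rose by 1.04 ± 0.065 and 0.98 ± 0.060. Senexin B alone raised 1 of the 24, GDF15 (1.09 ± 0.076), and lowered 1, TP53I3 (-0.70 ± 0.141), where 3.76% of all genes were called. SNX631 alone raised 0 and lowered 1, again TP53I3 (-0.74 ± 0.113), where 4.76% of all genes were called. Of 23 tested regulators of CDK inhibitor transcription, 2 rose and 1 fell at 24 h, and 3 rose and 1 fell at 72 h, which are smaller shares than those of all genes (medians 0.17 and 0.16). These included KLF4, an activator of CDKN1A, which rose by 1.84 ± 0.167 and 2.98 ± 0.206. Its vehicle means were low, at 1.99 CPM at 24 h and 1.18 at 72 h. EZH2, which silences the CDKN2A locus, also rose, by 1.14 ± 0.066 and 0.72 ± 0.063. SMAD3, a TGF-β effector, fell by 1.14 and 1.44 on the log2 scale. Of 7 neighbours of the CDKN2A-CDKN2B and CDKN1C loci, 5 were tested and 0 were called by edgeR in any of the 10 comparisons within an experiment, with 0 to 3 of them at an FDR under 0.01.

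All 25 proliferation genes listed rose with R1881 at 24 h (median 2.25) and at 72 h (median 1.42), among them RRM2 (3.98 ± 0.096 and 2.18 ± 0.047), a subunit of ribonucleotide reductase, and MKI67 (2.91 ± 0.091 and 1.77 ± 0.081), the Ki-67 antigen. Their summed level was 502 to 528 CPM in the 24 h vehicle libraries, 660 to 722 with Senexin B, 2004 to 2098 with R1881 and 2210 to 2444 with both. At 72 h it was 923 to 975 CPM in vehicle, 1618 to 1764 with SNX631, 2269 to 2367 with R1881 and 3225 to 3372 with both. SNX631 alone raised 23 of the 25, where 4.76% of all genes were called, and Senexin B alone 5, where 3.76% were. The proliferation sum thus moved with R1881 as CDKN2C and CDKN2D did and against CDKN1A and CDKN1B, and its part in those results was not tested. The sum was also higher than in vehicle with each inhibitor alone. With SNX631 the log2 fold change was -0.28 ± 0.040 for CDKN1A (FDR 5.1e-07) and -0.14 ± 0.043 for CDKN1B (FDR 0.0088). It was 0.12 ± 0.107 for CDKN2C and -0.06 ± 0.153 for CDKN2D, which did not pass the FDR limit. With Senexin B it was -0.27 ± 0.046 for CDKN1A, -0.22 ± 0.051 for CDKN1B and -0.66 ± 0.136 for CDKN2C, which passed. CDKN2D was at -0.57 ± 0.184 there and did not pass (FDR 0.013).

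**Figure D4:**
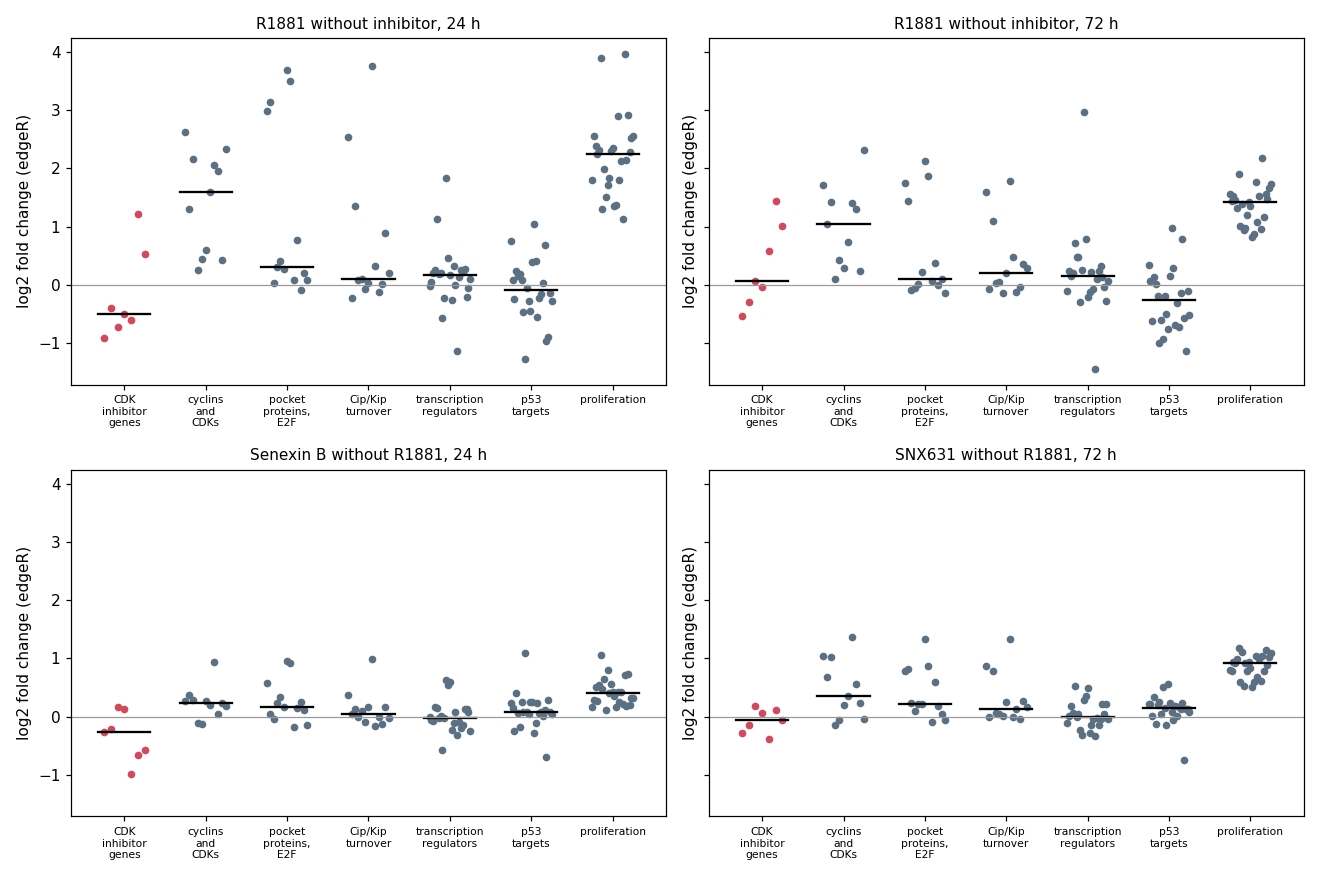
Log2 fold change (edgeR) of each tested gene, with the list's median as a bar, for the CDK inhibitor genes (red) and 6 lists of related genes (grey), for R1881 and for each inhibitor alone at 24 h and 72 h. With R1881 all 25 proliferation genes lie above 0 while the CDK inhibitor genes lie on both sides of it.

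Across the 28 libraries, after the mean of each experiment was taken off the log2 CPM, CDKN1A and CDKN1B went together (Pearson's r = 0.94) and so did CDKN2C and CDKN2D (r = 0.88), while CDKN1A and CDKN2C went apart (r = -0.84). CDKN2B had r between -0.25 and 0.56 with the other members. These are descriptions over libraries that share 8 treatment groups, so that any genes which respond to R1881 will correlate. Of 13468 genes with a mean of 1 CPM or more, those most like CDKN1A were SERINC3, UGT2B17 and ABR (r = 0.98, 0.98 and 0.97). UGT2B17, which glucuronidates androgens, is known to be lowered by androgen in LNCaP cells. CDKN1B was most like CAVIN1, PABPC5 and LINC01547 (0.96, 0.95 and 0.95), and CDKN1C like SLC37A1, TRIM41 and HOMER3 (0.85, 0.83 and 0.83). CDKN2A was most like UBXN1, DHRS13 and CD99L2 (0.86, 0.84 and 0.83), and CDKN2B like TMED5, CEP70 and CLTB (0.74, 0.73 and 0.72), the lowest values of the 7. CDKN2C was most like EHF, an ETS factor of epithelial cells, H1-10 and HECW2-AS1 (0.98, 0.97 and 0.97), and CDKN2D like PSMC3, a proteasome subunit, MRFAP1 and AP2S1 (0.95, 0.93 and 0.93).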

How the data were processed

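RNA of LNCaP cells was read from 28 libraries prepared by a directional kit. Expected counts, deposited by the authors as 1 table of genes, were used, in which 16.9% of nonzero values were not whole. The submitters' processing notes name FastQC, cutadapt 2.8, STAR 2.7.2b, featureCounts, Subread 2.0.3 and the builds GRCh38.p13 and GRCm39, with no role or order. Use of strand in counting is not given in the sources used here. Counts were not scaled by the authors. They were rounded to whole numbers, and 2 added entries with 0 counts in every library were left out.

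Each experiment was fitted alone by edgeR 4.0.16 under R 4.3.3 (quasi-likelihood test, TMM scaling). Low genes were removed by filterByExpr (minimum count 10, minimum total 15), and the Benjamini-Hochberg adjustment ran over 15963 genes at 24 h and 16084 at 72 h. Differences between experiments came from a fit of all 28 libraries (16685 genes). Calls needed an FDR under 0.01 together with a change of over 1.5-fold. Tests are two-sided, SEs are Wald SEs from the fit, and 95% intervals are 1.96 SE on either side. Levels are CPM scaled by TMM over 28 libraries, divided by the union of exons in GENCODE 29 (GRCh38) for CPM per kb. Overlap of groups was read from these CPM.

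Text names all members, up to 4 called genes of largest change per list and comparison, and the 3 genes most like each member by Pearson's r on log2 CPM (prior count of 2). TFDP2, CDC34 and CUL4B were not called, and are named because they were lower with R1881 alone at an FDR under 0.01, against the direction of their lists. The members and lists were chosen with earlier results of these data known. Promoters are from RefSeq (GRCh38.p14). Alternatives were other scalings, filters and limits, DESeq2 1.42.0 (Wald test), a replicate block, and leaving out each library. On simulated data the fits were tested before use. Python 3.11.15 and matplotlib 3.10.9 served for figures.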

Additional observations from a re-analysis of the deposited data

Results flagged for a closer look

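CDKN1C responded differently to R1881 at 72 h with and without SNX631: the interaction in edgeR's quasi-likelihood test was -0.86 ± 0.205 on the log2 scale (FDR 0.0031), with 8.27 ± 1.58 CPM in the R1881 libraries and 5.21 ± 1.28 in those with both agents (SD, n = 4). CDKN1C also responded differently to R1881 in the experiments, where its effect at 72 h exceeded that at 24 h by 0.78 ± 0.219 (edgeR, FDR 0.00996). CDKN2C differed in its response to the inhibitors without R1881, the effect of SNX631 at 72 h exceeding that of Senexin B at 24 h by 0.77 ± 0.177 (edgeR, FDR 0.0042). In the order given, these calls were lost without any 1 of 6, any 1 of 16 and any 1 of 4 libraries. In 28 groups of 4 libraries, for 7 genes in the 4 groups at 72 h, no library lay apart from the others of its group by Dixon's criterion, and groups of 3 were not tested.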

How the results depend on the processing

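The calls of CDKN1A and CDKN2C with R1881 at 24 h and of CDKN2C and CDKN2D with R1881 at 72 h held under each alternative. With an FDR under 0.05 and no fold limit, the members called were 6 for R1881 at 24 h (58.4% of all genes), 5 for Senexin B without R1881 (35.8%) and 2 with it (33.0%), 5 for R1881 at 72 h (62.1%) and 7 with SNX631 (65.7%), 2 for SNX631 without R1881 (36.5%) and 4 with it (42.8%), 4 for the R1881 effect at 72 h minus 24 h (13.3%), and 1 for SNX631 minus Senexin B with R1881 (6.08%). For Senexin B without R1881, DESeq2's Wald test called 1 member, giving CDKN2B no adjusted p, and a minimum count of 50 left 1, CDKN2B not being tested there. Library totals alone left 0 members for the R1881 effect at 72 h minus 24 h. That scaling moved the median of all genes for R1881 to -0.09 at 24 h and -0.12 at 72 h and the called genes to 1357 higher and 1812 lower at 24 h, from 1566 and 1462, and to 1297 higher and 2122 lower at 72 h, from 1557 and 1626. It took CDKN1A at 72 h past the fold limit (-0.64, and -0.61 with SNX631) and turned CDKN1C with R1881 at 72 h to -0.037. With every gene of 1 count or more kept, CDKN2D with SNX631 and R1881 became 0.00041, and CDKN1A for SNX631 minus Senexin B 0.0043 without and 0.0060 with R1881, all near 0 in the main fit.

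Leaving out 1 library gave 0 to 2 members for Senexin B without R1881, and 0 to 1 for SNX631 with R1881, for its interaction with R1881, for the R1881 effect at 72 h minus 24 h and for SNX631 minus Senexin B without R1881. Log2 values that changed sign were small in the main fit. At 24 h they ranged from -0.25 to 0.057 for CDKN1C and from -0.29 to 0.069 for CDKN2B under Senexin B with R1881, and for the interaction from -0.050 to 0.059 for CDKN1A, -0.084 to 0.015 for CDKN1B and -0.0039 to 0.17 for CDKN2A. At 72 h they ranged from -0.035 to 0.18 for CDKN1C under R1881, from -0.029 to 0.11 for CDKN2A and -0.15 to 0.071 for CDKN2D under SNX631, from -0.18 to 0.15 for CDKN2B and -0.11 to 0.041 for CDKN2D under SNX631 with R1881, and for the interaction from -0.0028 to 0.059 for CDKN1A and -0.091 to 0.14 for CDKN2D. For SNX631 minus Senexin B without R1881 they ranged from -0.063 to 0.026 for CDKN1A, -0.057 to 0.16 for CDKN1C and -0.15 to 0.041 for CDKN2A, and with R1881 from -0.050 to 0.059 for CDKN1A and -0.097 to 0.30 for CDKN2B. The cause of these changes was not tested.

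Replicate numbers showed no sign of pairing. Deviations of same-numbered libraries had correlations of -0.014 to 0.070 in the first experiment and of -0.070 to 0.071 in the second. Such low values cannot show that the samples were unpaired. With a replicate block the 2 members called for Senexin B without R1881 were CDKN2C and CDKN2D (-0.60, FDR 0.0078) in place of CDKN2B (-0.98, FDR 0.012), and 3 members were called for R1881 at 24 h and 2 at 72 h, as without it. Depth limits CDKN2B most, at 7 to 56 counts per library.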
